A study of Mus musculus with 37 samples.

Results

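The genes described here are 10 regulators that are known for the pluripotent state of early embryonic and embryonic stem cells, chosen by name from the table of RNA-seq read counts: Pou5f1, Nanog, Sox2, Klf4, Klf2, Lin28a, Lin28b, Zfp42, Foxo1 and Sall4. All 10 were found by their Ensembl identifiers among the 48795 genes of the table, and 6 of them had enough reads to be tested among the 16799 genes tested. The question was whether any of them was reactivated in the hippocampus when the histone demethylase Kdm1a (Lsd1) was deleted from adult forebrain neurons. Kdm1a-ifKOs were male C57BL/6J mice that carried floxed Kdm1a alleles (Kdm1a f/f) and the tamoxifen-inducible Cre recombinase Camk2a-creERT2, and they received tamoxifen (TMX) at 8 weeks of age. Controls, labelled WT, were littermates without the creERT2 transgene that received the same TMX treatment. The age of the mice when the hippocampus was taken for RNA-seq is not given in the sources used here. Poly-A RNA of the whole hippocampus was sequenced from 3 mice of each genotype, 1 mouse per library. The Camk2a promoter drives Cre in principal neurons of the forebrain, so the other cell types of the tissue are not targeted. The series also holds 1 CTCF ChIA-PET library of excitatory neuron nuclei sorted from the hippocampus, used below for the chromatin loops around these genes. Per the study's methods, such nuclei came from mice of 12 weeks with intact Kdm1a that carried Camk2a-creERT2 and the nuclear reporter CAG-Sun1/sfGFP, a month after TMX; the label gives the genotype as WT.

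Pou5f1 (Oct4), Nanog and Sox2 are DNA-binding factors that sit together at the enhancers of embryonic stem cells and keep one another switched on. Klf4, Klf2 and Zfp42 (Rex1) belong to the naive state, Sall4 works with Pou5f1 and Nanog, and Lin28a and Lin28b are RNA-binding proteins that block maturation of the let-7 microRNAs. Several members have other roles in the adult brain: Sox2 is a factor of neural stem cells and astrocytes, Klf2 and Klf4 are factors of endothelial cells, and Foxo1 is a target of insulin signalling in many cell types. In embryonic stem cells Kdm1a removes methyl groups from histone H3 lysine 4 at enhancers of such genes when the cells differentiate.

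The libraries held 18985542 to 19469947 counts and were close in depth. Kdm1a itself had 1481 to 1545 counts in the controls and 726 to 764 in the Kdm1a-ifKOs, and its log2 fold change (log2FC) was -1.07 ± 0.056 (SE, n = 3 per genotype). The 2 groups did not overlap. Markers of excitatory neurons were present in every library, with a summed level of 6502 to 6835 CPM (counts scaled to 1000000 per normalized library) over 7 genes in the controls and 6464 to 7096 in the Kdm1a-ifKOs. Control replicate 3 stood farthest from its group. The chi-square of its counts against the other controls was 7.06 and 8.23 per degree of freedom, against 3.11 between those other controls, and each RNA-seq result was also computed without it.

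The promoter windows of 5 members are printed as examples, from Nanog, with the fewest CpG dinucleotides of the matched members, to Klf4, with the most. Each runs from 250 bases before to 50 bases after the RefSeq start (GRCm38.p6), written 5′ to 3′ along the gene, with every CpG dinucleotide in capitals. Nanog, Pou5f1 and Zfp42 were at or near 0 counts in the hippocampus, and Sox2 and Klf4 were expressed.
Nanog promoter (chr6:122707239-122707538, plus strand): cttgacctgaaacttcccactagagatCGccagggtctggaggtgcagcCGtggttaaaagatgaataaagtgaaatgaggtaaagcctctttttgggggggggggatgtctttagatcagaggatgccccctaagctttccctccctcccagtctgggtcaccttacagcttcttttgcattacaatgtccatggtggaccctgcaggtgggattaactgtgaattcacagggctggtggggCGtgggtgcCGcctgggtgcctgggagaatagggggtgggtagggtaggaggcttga
Pou5f1 promoter (chr17:35505782-35506081, plus strand): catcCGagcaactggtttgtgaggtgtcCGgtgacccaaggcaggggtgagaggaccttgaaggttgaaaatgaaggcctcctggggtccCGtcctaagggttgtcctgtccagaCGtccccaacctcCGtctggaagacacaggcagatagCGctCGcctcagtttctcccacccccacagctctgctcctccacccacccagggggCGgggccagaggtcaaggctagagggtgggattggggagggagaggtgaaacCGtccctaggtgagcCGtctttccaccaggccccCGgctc
Zfp42 promoter (chr8:43306960-43307259, minus strand): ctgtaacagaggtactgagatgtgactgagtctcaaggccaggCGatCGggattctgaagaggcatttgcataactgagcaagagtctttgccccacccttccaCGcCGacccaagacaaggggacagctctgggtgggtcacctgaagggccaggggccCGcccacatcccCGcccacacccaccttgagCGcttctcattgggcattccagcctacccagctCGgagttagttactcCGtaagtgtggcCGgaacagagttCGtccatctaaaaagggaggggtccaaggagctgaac
Sox2 promoter (chr3:34649745-34650044, plus strand): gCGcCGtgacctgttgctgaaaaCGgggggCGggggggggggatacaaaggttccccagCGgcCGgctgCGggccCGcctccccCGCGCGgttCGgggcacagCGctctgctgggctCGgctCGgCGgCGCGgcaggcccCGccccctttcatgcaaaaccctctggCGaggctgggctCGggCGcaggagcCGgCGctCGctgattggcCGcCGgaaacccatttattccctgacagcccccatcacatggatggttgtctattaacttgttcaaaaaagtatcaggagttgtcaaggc
Klf4 promoter (chr4:55532426-55532725, minus strand): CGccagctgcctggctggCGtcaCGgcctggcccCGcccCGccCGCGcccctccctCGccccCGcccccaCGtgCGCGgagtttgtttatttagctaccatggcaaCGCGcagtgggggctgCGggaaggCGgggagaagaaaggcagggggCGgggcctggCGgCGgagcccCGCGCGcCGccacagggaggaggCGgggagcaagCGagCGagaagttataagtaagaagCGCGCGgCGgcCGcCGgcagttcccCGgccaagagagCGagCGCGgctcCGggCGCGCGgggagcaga

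CpG dinucleotides were fewer in the windows of the silent members than in those of Sox2, Foxo1, Klf2 and Klf4, but Lin28b, expressed at a low level, also had few. Nanog had 4, Lin28a had 10, and Pou5f1 and Zfp42 had 11 each. Sox2 had 27, Foxo1 had 31, Klf2 had 32 and Klf4 had 40. Lin28b had 8, but its RefSeq start lies 16194 bases inside the GENCODE gene, so its window is not at the start annotated there. The RefSeq start of Sox2 lies 410 bases before the GENCODE start, so the Sox2 window ends before the gene annotated in GENCODE. For Sall4 no window was matched. Across 19584 genes with a matched window the median was 12 CpGs, and it was 20 for the 11984 tested genes (quartiles 11 and 28) and 2 for the 3876 genes with 0 counts in all 6 libraries (quartiles 1 and 4). The silent members therefore lay at or above the upper quartile of the genes with no reads, and at or below the lower quartile of the tested genes. Among all matched windows Pou5f1 and Zfp42 lay at percentile 47.5 and Lin28a at 45.6, near the middle, and Nanog lay at 25.9.

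The Nanog window holds a shortened octamer next to a Sox site, the composite letters to which Pou5f1 and Sox2 are known to bind together in embryonic stem cells. The match begins 75 bases before the RefSeq start and is shown in capitals.
Nanog octamer and Sox letters (chr6:122707406-122707435, plus strand): cagcttctTTTGCATTACAATGtccatggt
The letters searched were TTTGCAT, 1 base of any kind and then ACAATG, on both strands, and the Nanog window was the 1 of 19584 windows that held them (0.00511%). These letters leave out the first base of the octamer, which the Nanog site lacks, and so they fit that site. Their rarity is therefore no evidence that the window is special. The octamer alone, ATGCAAAT on either strand, was in 322 windows (1.64%), among them that of Zfp42, where it begins 186 bases before the start. The Sox letters ACAATG were in 2261 windows (11.5%), among them Nanog, where they are part of the composite match, and Lin28a. A match of letters is a description of the window and says nothing of binding in these mice.

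**Figure D1:**
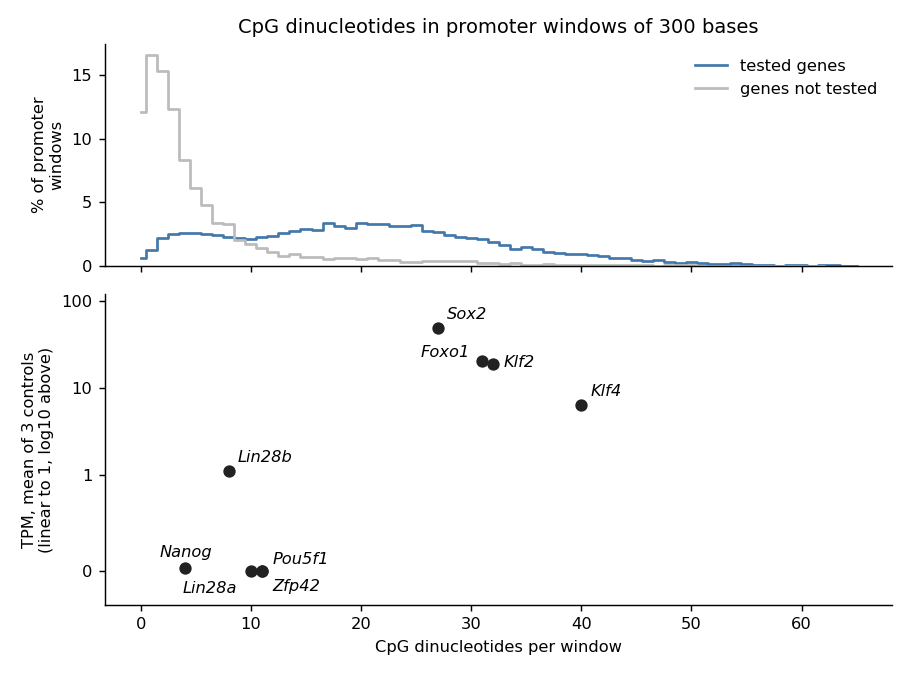
CpG dinucleotides per promoter window of 300 bases. The upper plot gives the percent of windows at each CpG number for tested genes and for genes not tested, and the lower plot places the 9 members with a window by CpG number and by their mean TPM (counts per exon length, scaled per library) in the 3 controls. Sox2, Foxo1, Klf2 and Klf4 lie at 27 to 40 CpGs and at 6.36 to 48.6 TPM, and the members at or near 0 TPM lie at 4 to 11 CpGs. Lin28b lies at 8 CpGs and 1.1 TPM.

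None of the 10 genes was called between genotypes. Of the 6 tested, 0 were called higher and 0 lower at an adjusted p under 0.05 in edgeR's quasi-likelihood test, beside 1014 of 16799 tested genes called higher (6.04%) and 473 called lower (2.82%), or 8.85% in either direction. With that background a count of 0 among 6 genes does not set the list apart from the other genes. At an unadjusted p under 0.05 there was 1 member of the 6, Foxo1, beside 4108 of the 16799 tested genes (24.5%). DESeq2 also called 0 members. The median log2FC of the 6 was 0.13, against -0.0034 over all tested genes. All 6 estimates were above 0, as were 8251 of the 16799 tested genes. Over 13 alternative settings the estimate of Klf2 turned negative in 3 and that of Klf4 in 1. Only Foxo1 had groups that did not overlap in CPM, a pattern that 15.7% of all tested genes showed with the Kdm1a-ifKOs higher and 14.4% with the Kdm1a-ifKOs lower.

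**Figure D2:**
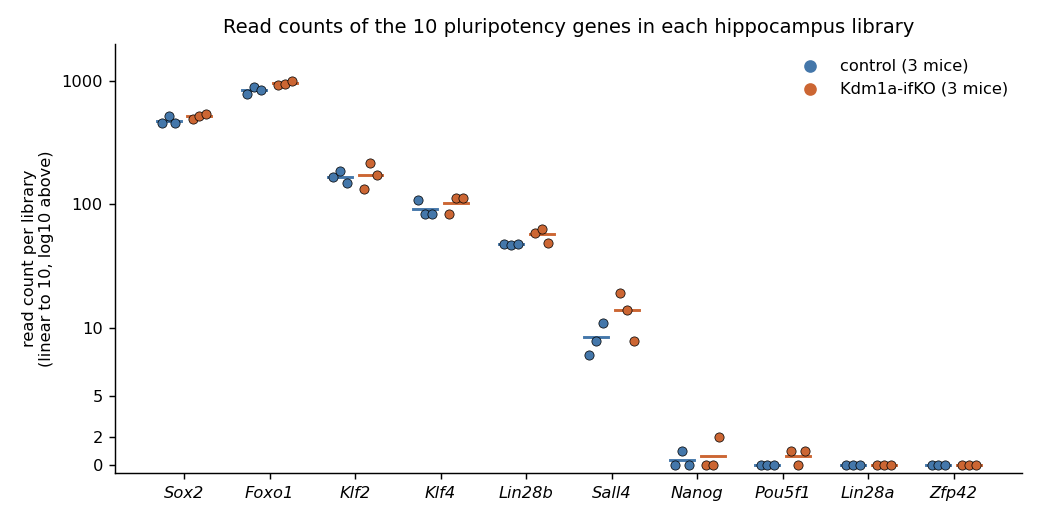
Read counts of the 10 genes in each of the 6 libraries, with 1 point per mouse and a bar at the mean of the 3 mice of a genotype; the axis is linear up to 10 counts and log10 above. Sox2 and Foxo1 have 454 to 995 counts in every library, Nanog and Pou5f1 have at most 2, and Lin28a and Zfp42 are at 0 throughout.

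The core factor Pou5f1 (chr17:35506018-35510772, GRCm38) was at or near 0 in both genotypes. Its counts were 0, 0 and 0 in control replicates 1 to 3 and 1, 0 and 1 in Kdm1a-ifKO replicates 1 to 3. Nanog (chr6:122707489-122714633), its partner in the core network, had 0, 1 and 0 counts in the controls and 0, 0 and 2 in the Kdm1a-ifKOs. The sums of 2 reads for each gene over the 3 Kdm1a-ifKO libraries are too few for a fold change, and none is given. When the filter on low counts was dropped, the adjusted p was 0.56 for Pou5f1 and 0.857 for Nanog (edgeR, n = 3 per genotype), beside 5.03% of 28781 genes called higher. Reads that fit a near-identical copy equally well are lost by the mapping quality filter of the authors, and the annotated pseudogenes Nanog-ps1 and Nanog-ps2 also had 0 counts in all 6 libraries.

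The RNA-binding protein gene Lin28a (chr4:134003330-134018841) and the zinc finger gene Zfp42 (chr8:43295063-43306980) had 0 counts in all 6 libraries. Over 57234867 counts in the controls this allows a level of up to 0.0528 CPM, and over 58286616 counts in the Kdm1a-ifKOs up to 0.0512 CPM. These limits, 3 counts over the 3 libraries of a group, cover counting error only. At this depth no reactivation of the 4 silent genes was detectable in whole tissue, and transcription in a few cells could go unseen.

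Sox2 (chr3:34650405-34652461), the member with the highest level per length, had 455, 519 and 454 counts in the controls and 494, 518 and 543 in the Kdm1a-ifKOs. The groups overlapped, with means of 25.1 ± 1.85 and 26.5 ± 1.26 CPM (SD, n = 3). Its log2FC was 0.08 ± 0.076 (SE, edgeR adjusted p = 0.582), and the 95% confidence interval of the fold ran from 0.941 to 1.182. Sox2 lies inside the noncoding gene Sox2ot on the same strand, but the annotated exons share 0 bases. Sox2ot had 709 to 744 counts in the controls and 725 to 806 in the Kdm1a-ifKOs.

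Klf4 (chr4:55527143-55532466), a zinc finger factor of the naive state, had 109, 84 and 84 counts in the controls and 83, 113 and 113 in the Kdm1a-ifKOs, so that all 3 controls lay inside the range of the Kdm1a-ifKOs. Its log2FC was 0.11 ± 0.169 (SE), with an interval of the fold from 0.839 to 1.39 and an edgeR adjusted p of 0.738. Klf2 (chr8:72319033-72321656), its relative with a role in endothelial cells, had 166, 187 and 148 counts in the controls and 133, 217 and 173 in the Kdm1a-ifKOs, which held both the lowest and the highest value. The log2FC of Klf2 was 0.02 ± 0.161 (SE, edgeR adjusted p = 0.969), and the interval of its fold was 0.792 to 1.29. The log2FC of Klf2 turned negative when control replicate 3 (-0.05) or Kdm1a-ifKO replicate 2 (-0.17) was left out. Of 10 endothelial markers in the same libraries 0 were called, their median log2FC was 0.08, and the summed level was 286 to 302 CPM in the controls and 276 to 341 CPM in the Kdm1a-ifKOs, with no marker at 0.

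Foxo1 (chr3:52268336-52353221), the forkhead factor restrained by insulin signalling, came closest to a difference. It had 786, 894 and 852 counts in the controls and 938, 955 and 995 in the Kdm1a-ifKOs. All 3 Kdm1a-ifKOs were above all 3 controls, with 49.3 ± 1.58 against 44.6 ± 3.09 CPM (SD, n = 3). Its log2FC was 0.14 ± 0.065 (SE), a fold of 1.1 with an interval from 1.00 to 1.22, and the edgeR p of 0.0472 became 0.198 after adjustment over all tested genes. Over 13 alternative settings the log2FC of Foxo1 lay between 0.09 and 0.18 and the lowest adjusted p was 0.121. The antisense gene Gm20402 shares 674 exon bases with Foxo1, and it had 0 counts in all 6 libraries.

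Lin28b (chr10:45376620-45486395), the paralog of Lin28a, was expressed at a low level in both genotypes. It had 48, 47 and 48 counts in the controls and 59, 63 and 49 in the Kdm1a-ifKOs, and in CPM the lowest Kdm1a-ifKO (2.52) fell inside the control range of 2.47 to 2.58. The log2FC was 0.21 ± 0.181 (SE, edgeR adjusted p = 0.515) and the interval of the fold 0.883 to 1.52. Sall4 (chr2:168748332-168767943), a zinc finger partner of Pou5f1, had 8, 9 and 11 counts in the controls and 19, 14 and 9 in the Kdm1a-ifKOs. The third Kdm1a-ifKO lay among the controls and the other two above them. Its log2FC of 0.53 ± 0.382 (SE, edgeR adjusted p = 0.426) was the highest of the 6 and the least certain, with an interval of the fold from 0.817 to 2.56. Without Kdm1a-ifKO replicate 1 the log2FC of Sall4 was 0.25, and without Kdm1a-ifKO replicate 3 it was 0.76. At this depth the interval of Sall4 reaches past a doubling, and those of the other tested members end short of one.

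**Figure D3:**
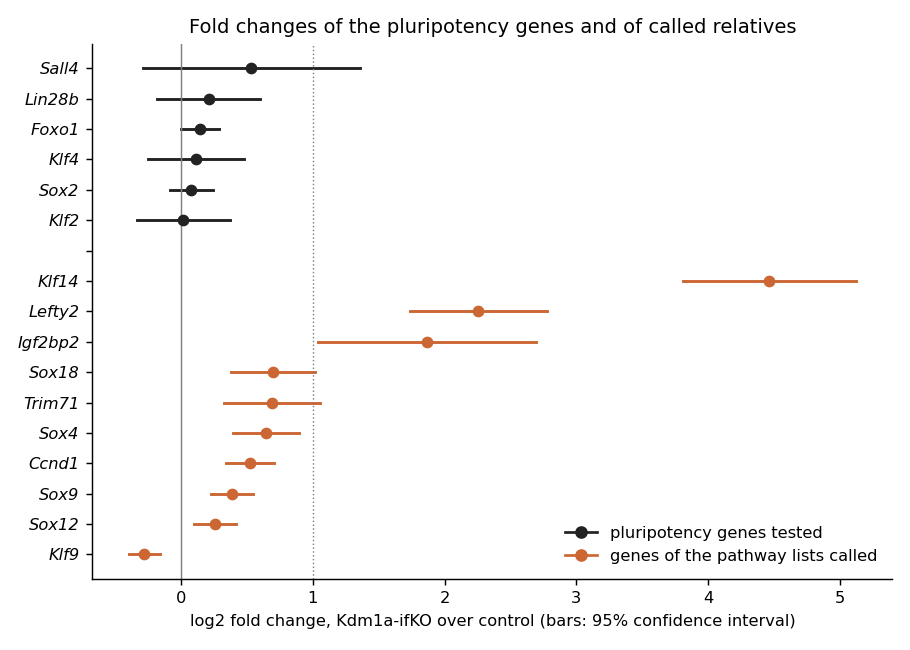
Log2 fold change in Kdm1a-ifKOs over controls, with 95% confidence intervals, for the 6 tested members (black) and for the called genes of the related lists (orange), without Mixl1, which had 0 counts in the controls. The dotted line marks a doubling. The members lie between 0.02 and 0.53, and Klf14 lies at 4.46.

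Levels between genes were compared per exon length, in TPM, which scales the length-corrected counts of a library to the same fixed sum. In the controls Sox2 had 48.6 ± 3.53 TPM, more than 75.9% of the tested genes, whose median was 17.7 TPM. Foxo1 followed with 20.5 ± 1.36 TPM and Klf2 with 19 ± 2.05 TPM, and their libraries overlapped. Klf4 had 6.36 ± 0.957 TPM, Lin28b 1.1 ± 0.022 TPM and Sall4 0.354 ± 0.062 TPM, each below its predecessor in all 3 controls. Nanog, from its single read, had a mean of 0.031 TPM, which cannot be told from the 3 members at 0. The 6 expressed members kept this order in the Kdm1a-ifKOs, at 51.5 ± 2.4 TPM for Sox2, 22.7 ± 0.676 for Foxo1, 19.3 ± 4.65 for Klf2, 6.9 ± 1.16 for Klf4, 1.29 ± 0.163 for Lin28b and 0.517 ± 0.185 for Sall4. A bulk level does not tell how many cells hold the RNA, and fewer cells of a type and less RNA per cell cannot be told apart.

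The wider pluripotency network held no call with the filter on low counts. Of 25 further genes of the core and naive network, 9 were tested, and 0 were called in either direction, with a median log2FC of 0.17. Dppa3, Dppa4, Dppa5a, Fgf4, Gdf3 and Tcl1, which mark early embryos and stem cells, were at 0 in all 6 libraries. The expressed genes with the highest CPM were Zfp281, a partner of the core factors, with 49.8 ± 8.07 CPM in the controls and 41.5 ± 3.66 in the Kdm1a-ifKOs, and Tfcp2l1, a naive-state factor, with 4.73 ± 1.184 and 5.33 ± 1.14 CPM (SD, n = 3). Their edgeR adjusted p was 0.202 and 0.649. Without the filter Zfp281 was called lower (log2FC -0.26, edgeR adjusted p = 0.00473), beside 3.79% of 28781 genes called lower. Of 5 genes of the 2-cell-like state 0 could be tested. Zscan4c, Zscan4d, Zscan4f and Tcstv3 were at 0 throughout, and Zfp352 had 2 counts in control replicate 2.

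Of 19 genes of the primed state and early lineages, the step after naive pluripotency, 9 were tested, 2 were called higher and 0 lower, beside 6.04% and 2.82% of all tested genes. Lefty2, a secreted antagonist of Nodal signalling, had 14, 17 and 21 counts in the controls and 90, 102 and 66 in the Kdm1a-ifKOs, with a log2FC of 2.26 ± 0.24 (SE, edgeR adjusted p = 4.91e-05). Mixl1, a homeobox factor of mesendoderm, had 0 counts in all 3 controls and 12, 11 and 14 in the Kdm1a-ifKOs, at least 11.9-fold higher against the limit of 3 counts over the control group (edgeR adjusted p = 0.00137). DESeq2 gave Mixl1 no adjusted p. Neither gene had overlapping groups. Pou3f1, a POU factor of the epiblast and of neurons, was at 43.9 ± 2.59 CPM in the controls and 43.8 ± 0.41 in the Kdm1a-ifKOs, and Lefty1 at 9.39 ± 0.072 and 9.44 ± 1.34 CPM. The median log2FC of the 9 tested genes was 0.17. Otx2, with 11 to 19 counts in the controls and 1, 4 and 24 in the Kdm1a-ifKOs, was called lower without Kdm1a-ifKO replicate 3 (edgeR adjusted p = 0.0444, against 0.743 with it).

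Beside Lin28a and Lin28b, 16 of 18 genes of the Lin28 and let-7 axis were tested, and 3 were called higher and 0 lower, beside 6.04% and 2.82% of all tested genes, with a median log2FC of -0.04. Tut7 and Dicer1 were called lower without the filter on low counts (edgeR adjusted p = 0.0337 and 0.0329). Igf2bp2, an mRNA-binding let-7 target, had 3, 7 and 7 counts in the controls and 18, 21 and 26 in the Kdm1a-ifKOs (log2FC 1.87 ± 0.382, SE). Trim71, an RNA-binding ubiquitin ligase and classical let-7 target, had 71, 68 and 76 counts in the controls and 105, 148 and 106 in the Kdm1a-ifKOs, with a log2FC of 0.69 ± 0.168 (SE, edgeR adjusted p = 0.022). Its call was lost without Kdm1a-ifKO replicate 2 (log2FC 0.51, adjusted p = 0.0822), without control replicate 1 (0.0563) and without control replicate 2 (0.0654), and also without control replicate 3 and Kdm1a-ifKO replicate 2 together (0.0586). Ccnd1, the cell cycle gene of cyclin D1, was at 44.5 ± 4.91 CPM in the controls and 63.8 ± 4.64 in the Kdm1a-ifKOs (log2FC 0.52 ± 0.083, SE). The processing enzymes Drosha and Ago2 were not called, at 126 ± 3.69 and 137 ± 16.1 CPM in the controls and 116 ± 3.33 and 130 ± 4.45 in the Kdm1a-ifKOs.

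The relatives of Klf4 and Klf2 contained the largest change of the related lists among genes with reads in the controls. Of 15 other Klf genes 13 were tested, 1 was called higher and 1 lower, beside 6.04% and 2.82% of all tested genes, with a median log2FC of -0.07. Klf7 was also called lower without the filter on low counts (edgeR adjusted p = 0.0102) and without Kdm1a-ifKO replicate 2 (0.037). Klf14, an intronless member of the family, had 3, 4 and 2 counts in the controls and 80, 69 and 64 in the Kdm1a-ifKOs, a log2FC of 4.46 ± 0.305 (SE). Klf9, a hormone-regulated factor of maturing neurons, fell from 159 ± 5.82 to 131 ± 6.5 CPM (log2FC -0.28 ± 0.055, SE, edgeR adjusted p = 0.00635). Klf13, the gene of the list with the highest CPM, was at 205 ± 13.4 and 216 ± 14 CPM and was not called.

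Among the relatives of Sox2, 16 of 19 were tested, 4 were called higher and 0 lower, beside 6.04% and 2.82% of all tested genes, and the median log2FC was 0.16. Sox5 was called lower without the filter on low counts (edgeR adjusted p = 0.0228) and without Kdm1a-ifKO replicate 2 (0.0494), against 0.213 with all libraries and the filter. Sox18, an endothelial factor, had 123, 160 and 99 counts in the controls and 213, 207 and 220 in the Kdm1a-ifKOs (log2FC 0.70 ± 0.147, SE). Sox4, a factor of young neurons, was at 7.01 ± 0.748 and 11 ± 0.479 CPM (log2FC 0.64 ± 0.116, SE). Sox9, a glial and stem cell factor, was at 23.9 ± 1.68 and 31.2 ± 1.34 CPM (log2FC 0.39 ± 0.074, SE). Sox12 (log2FC 0.26 ± 0.074, SE) passed narrowly with an edgeR adjusted p of 0.046, and its call was lost in DESeq2 (adjusted p = 0.0926), with the replicate number as a block (0.078), without control replicate 3 and Kdm1a-ifKO replicate 2 together (0.0711) and when any one of the 6 libraries was left out (adjusted p from 0.0568 to 0.167). Sox10 and Sox8, the genes of the list with the highest CPM, were not called.

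Markers of other cell types were measured in the same libraries as these Sox genes. The counts of called markers stand beside 6.04% of all tested genes called higher and 2.82% called lower. Of 9 astrocyte markers 3 were called higher (Slc1a3, Aldoc and S100b) and 0 lower. Their summed level was 5412 to 6065 CPM in the controls and 6073 to 6435 in the Kdm1a-ifKOs. Here and in the lists that follow no marker was at 0 in all 6 libraries. Of 8 microglia markers 3 were called higher (Cx3cr1, Csf1r and Tmem119), with 335 to 366 and 383 to 492 CPM. The 3 microglia calls were lost without control replicate 1, and these 6 calls were all lost without Kdm1a-ifKO replicate 3, and also without control replicate 2 (adjusted p from 0.0615 to 0.17). Among 10 neural stem cell and progenitor genes 1 was called higher, Neurog2, with summed levels of 132 to 144 and 134 to 147 CPM, and of 8 mural and meningeal markers 1, Pdgfrb, with 303 to 310 and 276 to 404 CPM. Their part in the values of the Sox genes was not tested.

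The lists around Foxo1, Sall4 and Pou5f1 held no call with the filter on low counts. Of 22 other FoxO genes and FoxO targets 18 were tested, with 0 called and a median log2FC of 0.02. Without the filter 1 of them, the insulin receptor gene Insr, was called lower (log2FC -0.19, edgeR adjusted p = 0.0396, against 0.129 with the filter). The targets with the highest CPM, Sesn3 and Sod2, were at 124 ± 14.8 and 102 ± 6.46 CPM in the controls and at 118 ± 5.57 and 93.6 ± 1.71 in the Kdm1a-ifKOs. All 3 other Sall genes were tested and 0 called, with Sall2 at 91.9 ± 3.86 and 96.1 ± 4.24 CPM and Sall1 at 24.4 ± 1.73 and 28.4 ± 1.48 CPM (edgeR adjusted p = 0.527 and 0.0942). Of 14 other POU genes 8 were tested and 0 called, and Pou6f1 (146 ± 8.59 and 153 ± 4.36 CPM) and Pou3f3 (107 ± 3.76 and 109 ± 1.34 CPM), both neuronal factors, were the most abundant.

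**Figure D4:**
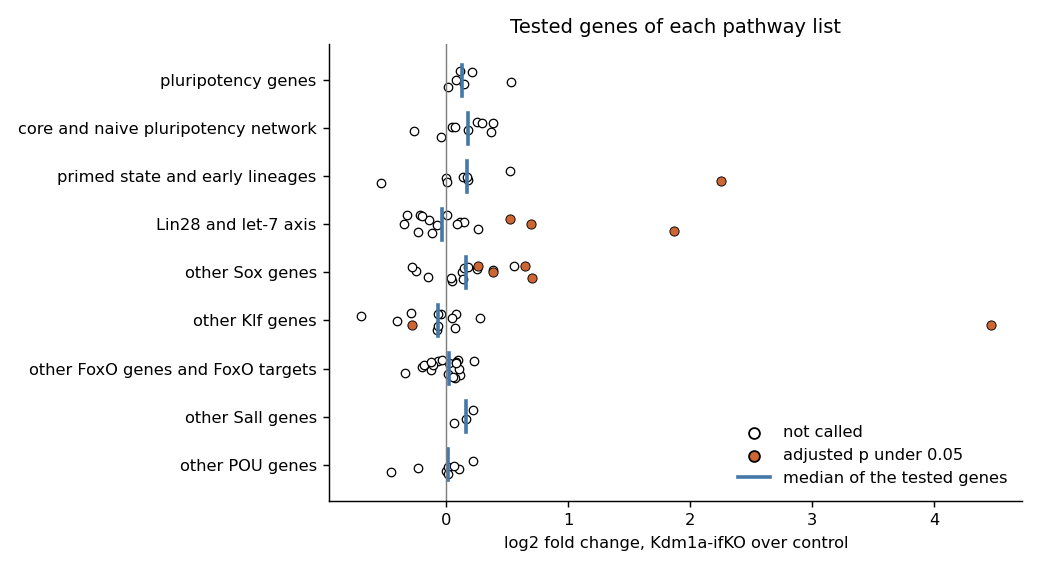
Log2 fold change in Kdm1a-ifKOs over controls of each tested gene of the members' list and of the 8 related lists with tested genes, without Mixl1; filled points passed an adjusted p of 0.05 and the bar is the median of the tested genes of the list. The called genes of the related lists lie between -0.28 and 4.46, and no point of the pluripotency genes is filled.

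CTCF loops around the members were read from the ChIA-PET library of sorted excitatory neurons, which lists 27786 loops with 3 or more paired-end tags (PETs), the read pairs that join 2 anchors. It is 1 library of mice with intact Kdm1a, so its values have no replicate and no knockout to compare with. A loop was counted at a gene when an anchor lay within 10 kb of the gene body. Of the 10 members 7 had such a loop, 34 loops in all, beside 10721 of 21755 annotated protein-coding genes (49.3%), 60.5% of the tested protein-coding genes and 12.8% of those with 0 counts in all 6 libraries. All 10 members lay inside at least 1 loop that spanned the whole gene body, as did 81.7% of protein-coding genes.

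The silent Nanog had the loop with the most PETs of the list. It was anchored by 2 loops of 40 and 25 PETs, which spanned 51.1 and 58.6 kb and enclosed the gene, from 38.2 and 46.8 kb upstream to 12.9 and 11.8 kb downstream of its start. The stronger loop is shown by the CTCF letters in its 2 anchors, which carry CC, 3 bases of any kind, AG, 2 bases of any kind and GGC, all in capitals, and face each other, the orientation that is usual for CTCF loops. The third line is the anchor of the strongest Klf4 loop. The letters were searched on both strands in windows of 1000 bases at the anchor centres, and 23450 of all 55480 anchors held them (42.3%). Among the strongest loops of the other members, those of Pou5f1, Sox2 and Foxo1 held the letters in neither anchor. Those of Klf4, Lin28b and Sall4 held them in 1 anchor each.
Nanog loop, upstream anchor (chr6:122669535-122669564, plus strand): gacagtccaCCAACAGGGGGCgttatttcc
Nanog loop, downstream anchor (chr6:122720654-122720683, minus strand): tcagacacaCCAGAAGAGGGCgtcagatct
Klf4 loop, anchor over the gene (chr4:55530441-55530470, minus strand): cagcctcagCCGCCAGGTGGCgggctgatg

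Pou5f1, also silent, had 7 loops with 51 PETs in all, and the strongest, with 29 PETs, ran from 10.4 to 27.8 kb downstream of its start. The silent genes Lin28a and Zfp42 had 0 loops within 10 kb, and so had Klf2, which was expressed. Foxo1 had 9 loops, the most of the list, with anchors 3.26 to 11.7 kb upstream of its start that joined sites 576 to 761 kb downstream, beyond the gene. Its strongest loop had 22 PETs. Klf4 had 4 loops, which all reached 830 to 1153 kb upstream, and the strongest, of 17 PETs, had its anchor over the gene body. Sox2 had 2 loops, of 13 PETs from 10.8 to 419 kb upstream and of 4 PETs from 2.46 kb upstream to 832 kb downstream. Sall4 had 7 loops with 47 PETs and Lin28b 3 loops with 30 PETs, of which 24 were in 1 loop beyond the end of the gene. Loops were thus present at every member expressed in the tissue but Klf2. Among the silent members they were present at Nanog and Pou5f1 and absent at Lin28a and Zfp42. The loops are those of sorted excitatory neurons, whereas the RNA levels are those of the whole hippocampus. A member expressed in the tissue may therefore be silent in the neurons whose loops were read.

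**Figure D5:**
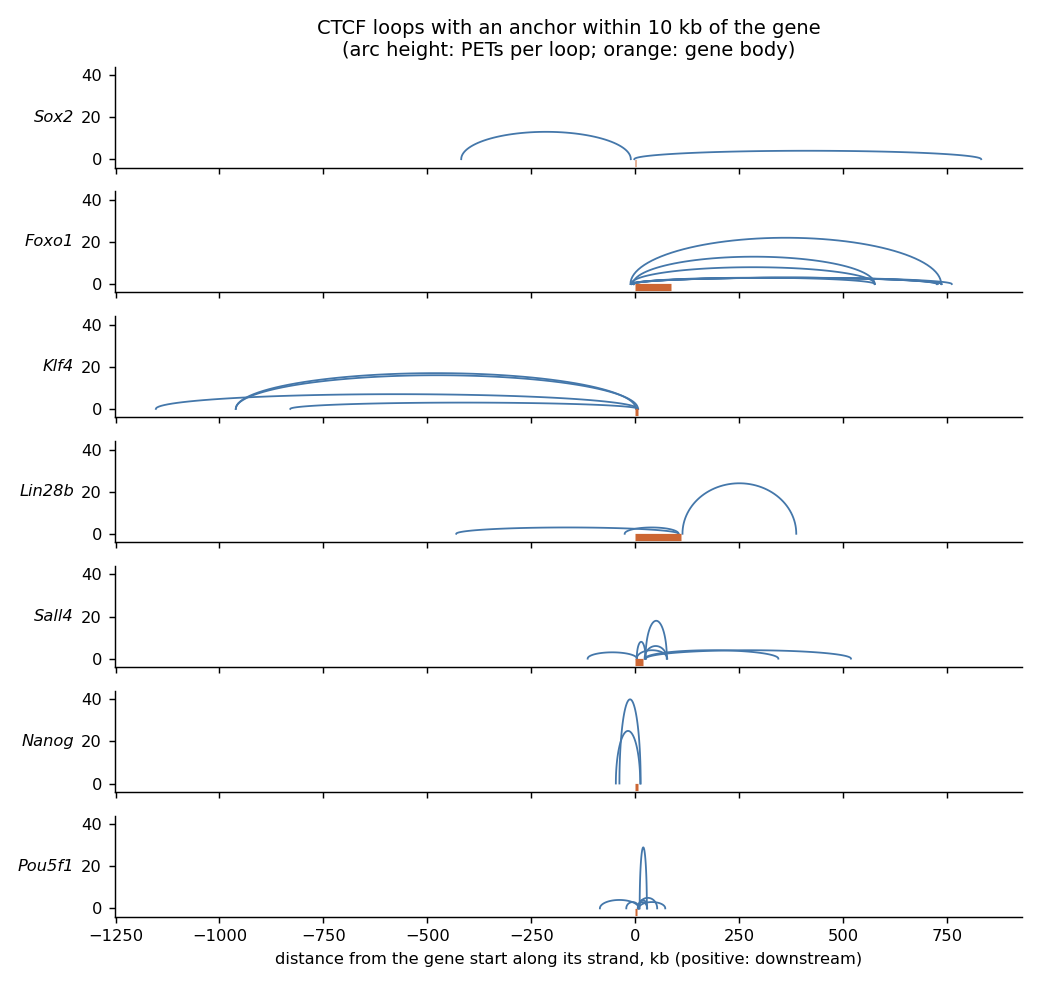
CTCF loops with an anchor within 10 kb of each of 7 members, drawn by the distance of their anchor centres from the gene start along the strand of the gene in kb; the height of an arc is the number of PETs, and the orange bar is the gene body. The 2 Nanog arcs reach 25 and 40 PETs and stay close to the gene, whereas the arcs of Klf4, Foxo1 and Sox2 reach at least 419 kb from the gene start.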

How the data were processed

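Per the study's methods, the authors trimmed the single-end poly-A reads with cutadapt (1.18), aligned them to the mouse genome GRCm38 (mm10) with HISAT2 (2.1.0), kept reads of high mapping quality on nuclear chromosomes and counted them per gene with HTSeq (0.11.1). The deposited table holds these raw counts, which are not normalized. The strand setting of the counting is not given in the sources used here, so overlapping genes on opposite strands may share reads. The authors made the loop list with ChIA-PIPE on mm10, and its deposited values are counts of paired-end tags (PETs) per loop.

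Identifiers were given symbols from GENCODE M21 (48435 of 48795 matched). Genes passing edgeR's filterByExpr were tested with edgeR (4.0.16) by quasi-likelihood with TMM normalization and genotype as the only term, and p-values were adjusted by Benjamini-Hochberg over the 16799 genes tested. The SE is the size of the log2FC divided by the square root of F. CPM uses TMM-normalized library sizes, and TPM divides counts by summed exon length. Scripts were tested on simulated data. Groups follow the labelled genotype. Depth was 18985542 to 19469947 counts per library, so low genes are limited by counting error. An exact permutation test of 3 against 3 could not give a p under 0.1 and was not used. Alternatives were DESeq2 (1.42.0), other scalings and filters, a block on the replicate number, and each library left out. The members and lists were chosen with earlier results of these data known. Named genes were all members, the called genes of each list (at most 5, smallest p), the 2 genes of each related list with the highest mean CPM, those most like Sox2, and overlapping or neighbouring genes of members. The abundant genes of the marker lists are not named. Histone ChIP and 4C samples were not used here. Promoter sequences are from RefSeq (GRCm38.p6), matched for 9 of the 10 members.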

Additional observations from a re-analysis of the deposited data

How the results depend on the processing

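The counts of 0 members called higher and 0 called lower held under all 13 alternatives, and no member passed the threshold in any of them. Sall4 could not be fitted without control replicate 3 and Kdm1a-ifKO replicate 2 together, because it failed the filter. Over all genes, leaving out 1 library gave 646 to 876 genes called higher (fewest without Kdm1a-ifKO replicate 3) and 137 to 584 called lower (137 and 164 without Kdm1a-ifKO replicates 3 and 1) (1039 and 560 without control replicate 3 and Kdm1a-ifKO replicate 2 together), and no filter on low counts gave 1447 higher and 1090 lower. The replicate numbers did not pair the samples: the deviations of same-numbered libraries correlated at -0.033, -0.091 and -0.148, and no library correlated best with its own number. With the replicate block 797 genes were called higher and 249 lower, and 0 members. Without the filter 7 genes of the related lists were called lower and 16 marker genes higher, and leaving out 1 library gave 1 to 3 (3 without Kdm1a-ifKO replicate 2 and 2 without replicate 3) and 4 to 11 (4 without Kdm1a-ifKO replicate 3 or control replicate 2). The log2FC of Klf2 was -0.23, and that of Klf4 -0.0027, without control replicate 3 and Kdm1a-ifKO replicate 2, and that of Sesn3 was 0.019. Leaving out 1 library gave -0.17 to 0.17 for Klf2, 0.034 to 0.24 for Klf4, -0.017 to 0.40 for Tfcp2l1, -0.033 to 0.040 for Pou3f1, -0.092 to 0.12 for Lefty1, -0.16 to 0.020 for Ago2, -0.12 to 0.034 for Sesn3 and -0.0073 to 0.037 for Pou3f3. Pou3f1 was at 0.00086 without the filter and 0.021 with upper-quartile normalization. The cause of these shifts was not tested. In CPM in place of TPM Foxo1 ranked 1 and Sox2 ranked 2. Loops at the members numbered 15 at 5 or more PETs, 10 at 10 or more PETs, and 6, at 3 members, when the anchor had to overlap the gene body. Sall4, with 8 to 19 counts per library, is the member that depth limits most among those tested.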

Other observations

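The genes next to the silent members differed widely in level. Slc2a3, the neuronal glucose transporter gene 13.2 kb from Nanog, was at 177 ± 11.6 CPM in the controls and 178 ± 4.95 in the Kdm1a-ifKOs (SD, n = 3), and Dppa3 on the other side of Nanog had 0 counts. Dhdds, 2.41 kb from Lin28a, was at 69.3 ± 4.89 and 69.9 ± 1.74 CPM. Triml2 and Adam26b, on either side of Zfp42, had 0 counts in all 3 controls.

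Among the neighbours of members with loops only Atp9a was called, beside 8.85% of all tested genes called in either direction. Atp9a, a phospholipid flippase gene 5.92 kb from Sall4, was higher, at 369 ± 22.8 and 421 ± 8.2 CPM (log2FC 0.19 ± 0.054, SE, edgeR adjusted p = 0.0436). Rad23b, 135 kb from Klf4, was at 173 ± 6.07 and 154 ± 5.83 CPM and was not called (log2FC -0.16 ± 0.052, SE, edgeR adjusted p = 0.071). Bves, 4.14 kb from Lin28b, was at 3 ± 0.468 and 4.3 ± 0.516 CPM and was not called (edgeR adjusted p = 0.0886). Tcf19, 1.96 kb from Pou5f1, was at 2.01 ± 0.268 and 2.05 ± 0.354 CPM and was not called (edgeR adjusted p = 0.958). On the other side of Pou5f1, H2-Q10, a class I histocompatibility gene 31.5 kb away, had 0, 0 and 1 counts in the controls and 4, 4 and 8 in the Kdm1a-ifKOs. It failed the filter and was not tested, and close relatives in the same gene family make its counts uncertain.

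By the correlation of log2 CPM over the 6 libraries, the genes most like Sox2 were Sowahc (Pearson's r = 0.988), 6430590A07Rik (0.986) and Mir703 (0.985), out of 22 genes with r over 0.95. With 6 points that share depth and scaling this is a description of the pattern, and the edgeR adjusted p of the 3 genes between genotypes was 0.767, 0.786 and 0.584.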
